A study of Mus musculus with 4 samples.

Results

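The 8 genes described here encode the channels that set the rhythm of the heartbeat and admit calcium into heart muscle cells. They are the HCN channel genes Hcn2 and Hcn4, the L-type calcium channel genes Cacna1c and Cacna1d with the accessory subunit genes Cacnb2 and Cacna2d1, and the T-type calcium channel genes Cacna1g and Cacna1h. They were chosen by symbol, and all 8 were found among the 17485 genes of the deposited table. Total RNA of hearts was sequenced from Klf9 knockout (Klf9 KO) and wild-type (WT) mice, with 2 libraries per group. The labels give male sex and an age of 8 weeks for both groups and free access to food and drink. They name no strain, knockout allele, litter or batch. Nor do they say whether each library is a different animal, and the p-values below rest on a spread between libraries that may be technical. The stated aim was to examine how the Krüppel-like transcription factor Klf9 bears on cardiac mitochondria; the comparison made here is Klf9 KO against WT.

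HCN channels open when the membrane is hyperpolarised and carry the inward pacemaker current, with Hcn4 the main form of the sinoatrial node. L-type calcium channels open at strong depolarisation and trigger contraction; Cacna1c encodes the pore of the ventricular form and Cacna1d that of a form used by atrial and nodal cells. T-type channels open near the resting potential. In rodents they are present in the embryonic ventricle and are restricted largely to nodal and conduction cells in the adult.

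Knockout hearts carried more T-type channel RNA and more Cacna1d RNA than wild-type hearts, and less RNA of the accessory subunit gene Cacna2d1. Hcn2, Hcn4, Cacna1c and Cacnb2 did not pass the test. All 8 genes were tested with limma on log2(value + 1), and adjusted p below 0.05 over all 12135 tested genes was the threshold. With it, 3 of the 8 were higher and 1 was lower in the knockout, where 27.7% of all tested genes were higher and 17.0% lower. The median log2 fold change was 0.12 in the 8 genes and 0.12 in all tested genes. Scaling the libraries by median ratios (RLE) moved the median of all tested genes to -0.02 and the split of calls to 2610 higher and 2633 lower, against 3367 and 2061 without it, and left the calls of the 8 genes as they were.

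Promoter sequences are shown for the members that passed the test and have an entry in the RefSeq table (build GRCm38.p6), since Klf9 belongs to a family of proteins that bind GC-rich elements. Entries matched 6 of the 8 members by symbol and gene ID, with 10 start sites; Cacna1g and Cacna1h were not among them. Each line gives the 250 bases before a start site, 5′ to 3′ on the strand of the gene, and capitals mark the GC box GGGCGG or its reverse complement CCGCCC, with overlapping matches counted separately.
Cacna1d upstream start site, chr14:30491157-30491406, minus strand: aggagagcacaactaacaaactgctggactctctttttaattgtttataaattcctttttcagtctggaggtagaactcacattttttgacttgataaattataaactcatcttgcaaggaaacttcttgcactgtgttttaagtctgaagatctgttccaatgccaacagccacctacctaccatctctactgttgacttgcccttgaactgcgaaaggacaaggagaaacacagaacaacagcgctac
Cacna1d downstream start site, chr14:30353487-30353736, minus strand: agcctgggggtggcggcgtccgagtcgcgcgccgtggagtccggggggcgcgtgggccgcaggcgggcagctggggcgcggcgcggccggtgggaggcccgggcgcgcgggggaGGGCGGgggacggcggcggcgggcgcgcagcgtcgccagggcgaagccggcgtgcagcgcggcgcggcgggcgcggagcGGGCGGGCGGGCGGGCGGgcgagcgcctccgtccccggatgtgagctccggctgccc
Cacna2d1, chr5:15934441-15934690, plus strand: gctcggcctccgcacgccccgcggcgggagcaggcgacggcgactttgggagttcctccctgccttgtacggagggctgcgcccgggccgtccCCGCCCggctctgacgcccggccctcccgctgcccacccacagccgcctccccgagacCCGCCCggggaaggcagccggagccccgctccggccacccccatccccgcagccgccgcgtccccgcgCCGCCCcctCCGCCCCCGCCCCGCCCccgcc
The upstream window of Cacna1d is 39.6% G or C and holds 0 matches, and the downstream window is 86.4% G or C and holds 5. The Cacna2d1 window is 82.4% G or C and holds 6 matches, the nearest ending 6 bases before the start site. Of all 32851 windows of this length in the table, 32.7% held at least 1 match, and 6 of the 10 member windows did, among them windows of Hcn2, Hcn4, Cacna1c and Cacnb2, which did not pass. A match is a description of the letters and not of binding, and which start site the RNA in these hearts came from is not known from gene-level values.

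The libraries were checked before the members were read. Klf9 itself stood at 2.66 and 1.99 in the Klf9 KO libraries, against 74.9 and 58.8 in the WT libraries, a log2 fold change of -4.35 ± 0.20 (SE) with a limma adjusted p of 3.46e-06. Values are on a scale whose unit was not given, and a library's values summed to 409359 and 418974 in the knockout and to 426032 and 489534 in wild type; read depth is unknown. Klf9 KO replicate 2 went against its male label, with the Y-linked genes Kdm5d and Ddx3y both at 0.01, against 4.01 and 7.82 in Klf9 KO replicate 1. The Y-linked genes Eif2s3y and Uty were low but above 0.01, at 0.73 and 0.58, against 26.96 and 3.57 in Klf9 KO replicate 1. Results are therefore also given without Klf9 KO replicate 2. The groups differed in a large share of the transcriptome, and in the knockout Tnni1, the troponin I of the immature heart, stood at 656 and 994, against 0.16 and 0.01 in wild type. Igf2, a fetal growth factor, stood at 311 and 399 in the knockout and at 8.87 and 4.65 in wild type. Esr1, the estrogen receptor alpha gene, stood at 0.09 and 0.03 in the knockout and at 3326 and 2726 in wild type. The loss of Klf9 and other differences between the groups cannot be told apart in this design, and their part in the channel results was not tested. Markers of heart muscle cells were high in both groups, with 8 markers summing to 19427 and 17625 in the knockout and to 19541 and 22228 in wild type, led by Myh6 and Tnnt2. Of the 8, 0 were higher, 1 (Tnni3) was lower and 7 did not pass, beside 27.7% higher and 17.0% lower over all tested genes.

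Hcn4, Cacna1d and the T-type genes are known from the sinoatrial node and atria, so markers of these tissues were read, and they did not behave alike. Of the nodal markers, Isl1 stood at 0.03 and 0.01 in the knockout and at 0.01 in both wild-type libraries. The lowest value the scale can take is 0.01, which may stand for 0. Shox2, another nodal factor, stood at 0.57 and 0.22 in the knockout and at 0.45 and 0.65 in wild type. Tbx3, which holds nodal cells in their pacemaker state, stood at 6.68 and 7.00 in the knockout and at 6.97 and 7.47 in wild type and did not pass. The 8 nodal markers together summed to 45.4 and 41.3 in the knockout and to 42.7 and 37.8 in wild type, led by Smoc2 and Rgs6. Of 5 tested, 2 were higher (Cpne5 and Tbx18) and 0 lower. Cpne5 stood at 1.33 and 2.13 in the knockout and at 0.09 and 0.22 in wild type. It reached 1, the minimum for the test, only in the knockout libraries. Tbx18 stood at 2.66 and 2.99 in the knockout and at 1.31 and 1.19 in wild type. The atrial marker sarcolipin (Sln) stood at 0.14 and 0.13 in the knockout and at 0.01 in both wild-type libraries. Atrial myosin light chain (Myl7) stood at 1.31 and 2.18 in the knockout and at 0.30 and 0.20 in wild type. Another atrial light chain that the embryonic ventricle also uses (Myl4) rose, with 5.61 and 7.75 in the knockout and 1.79 and 2.0 in wild type (log2 fold change 1.39; limma adjusted p = 0.000589). The 8 atrial markers summed to 225 and 273 in the knockout and to 487 and 437 in wild type, led by Nppa and Pam. Of 6 tested, 2 were higher (Myl7 and Myl4) and 3 lower (Nppa, Pam and Stard10). Like Cpne5, Myl7 reached 1 only in the knockout libraries, so it was tested only through the group where it was high. Nppa stood at 93.8 and 134 in the knockout and at 232 and 195 in wild type. Pam stood at 98.9 and 99.9 in the knockout and at 209 and 206 in wild type. Stard10 stood at 11.8 and 14.4 in the knockout and at 25.2 and 19.8 in wild type. The 6 ventricular markers, led by Myl2 and Myl3, summed to 20916 and 20868 in the knockout and to 13826 and 16308 in wild type. Of these, 3 were higher and 1 lower, and Myl2 and Myl3 did not pass (limma adjusted p = 0.152 and 0.232). Over all tested genes, 27.7% were higher and 17.0% lower. The part of nodal, atrial and ventricular tissue in the channel results was not tested.

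The T-type pore genes rose in the knockout by similar amounts. Cacna1g (Entrez 12291), which encodes Cav3.1, stood at 22.5 and 20.1 in the Klf9 KO libraries and at 4.25 and 2.53 in the WT libraries. Both knockout libraries lay well above both wild-type libraries, and the ratio of the group means was 6.28. Its log2 fold change was 2.37 ± 0.22 (SE, n = 2 per group; limma adjusted p = 6.71e-05). Cacna1h (Entrez 58226), which encodes Cav3.2, stood at 12.5 and 11.8 in the knockout and at 2.41 and 1.11 in wild type. Its groups were also apart, with a ratio of means of 6.90 and a log2 fold change of 2.29 ± 0.23 (SE; limma adjusted p = 0.000121). The knockout libraries differed little between themselves in either gene, by 1.12 times in Cacna1g and 1.05 times in Cacna1h, whereas WT replicate 1 exceeded WT replicate 2 by 1.68 and 2.17 times. Without Klf9 KO replicate 2, with 1 library left for the knockout, the log2 fold changes were 2.45 for Cacna1g and 2.33 for Cacna1h. In bulk tissue, more RNA per cell and more cells with the RNA cannot be told apart.

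**Figure D1:**
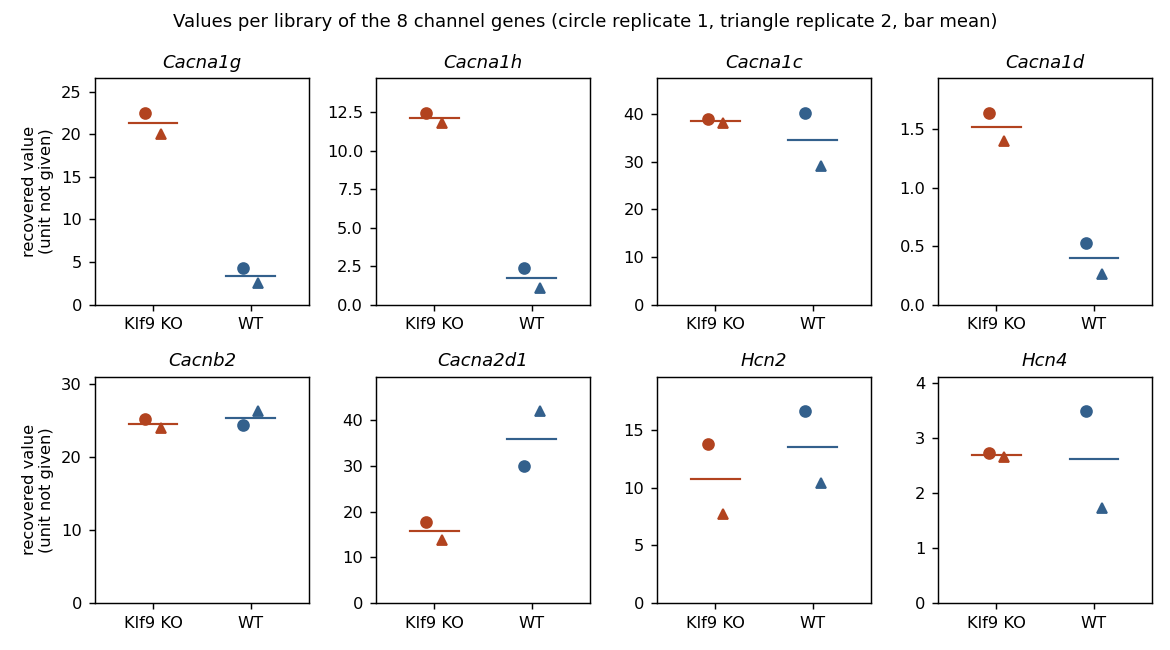
Value per library of each of the 8 channel genes (vertical axes, unit not given, each starting at 0) in Klf9 KO and WT hearts; circles are replicate 1, triangles replicate 2 and bars the mean of 2 libraries. Cacna1g, Cacna1h and Cacna1d lie higher in both Klf9 KO libraries than in both WT libraries, Cacna2d1 lies lower in both, and the groups overlap in the other 4 genes.

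The L-type pore genes did not move together. Cacna1d (Entrez 12289), which encodes Cav1.3, was near the bottom of the scale, at 1.64 and 1.40 in the Klf9 KO libraries and 0.53 and 0.26 in the WT libraries. Both knockout libraries were higher than both wild-type libraries, with a ratio of means of 3.85. On the log2(value + 1) scale, which understates the change of low genes, its log2 fold change was 0.86 ± 0.16 (SE; limma adjusted p = 0.00282). Without the pseudocount it was 2.03, which passed, and without Klf9 KO replicate 2 it was 0.93. Cacna1d reached 1, the minimum for the test, only in the knockout libraries, so it was tested only through the group where it was high. With no filter it also passed (limma adjusted p = 0.0148). Cacna1c (Entrez 12288), which encodes Cav1.2, stood at 38.97 and 38.3 in the knockout and at 40.3 and 29.1 in wild type. Both knockout libraries lay between the wild-type libraries, and its log2 fold change of 0.17 did not pass (95% interval -0.30 to 0.64; limma adjusted p = 0.537). Without WT replicate 1 the log2 fold change of Cacna1c was 0.40, and without WT replicate 2 it was -0.06, so its sign depends on which wild-type library is left out. Each of these fits had 1 library left for wild type.

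Of the accessory L-type subunits, Cacna2d1 fell and Cacnb2 did not pass. Cacna2d1 (Entrez 12293) encodes the alpha 2 delta 1 subunit, which brings the channel to the cell surface. It stood at 17.7 and 13.7 in the Klf9 KO libraries, against 29.97 and 41.96 in the WT libraries. Both knockout libraries lay below both wild-type libraries, and the knockout mean was 0.437 of the wild-type mean. The log2 fold change was -1.14 ± 0.22 (SE; limma adjusted p = 0.00348). Without Klf9 KO replicate 2, the lowest library, it was -0.96, with 1 library left for the knockout. Cacnb2 (Entrez 12296) encodes the main beta subunit of the ventricular channel and stood at 25.2 and 24.04 in the knockout and at 24.4 and 26.3 in wild type. The groups overlapped, with a log2 fold change of -0.04 (95% interval -0.44 to 0.36; limma adjusted p = 0.876); its wild-type libraries were the closest of the 8 genes.

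Neither HCN gene passed, and in both the libraries of the groups overlapped. Hcn4 (Entrez 330953) stood at 2.72 and 2.65 in the Klf9 KO libraries and at 3.48 and 1.73 in the WT libraries. As for Cacna1c, the knockout libraries agreed closely and both lay between the wild-type libraries, which differed by 2.01 times. The log2 fold change of Hcn4 was 0.08 (95% interval -0.46 to 0.61; limma adjusted p = 0.819). It was 0.43 without WT replicate 1 and -0.28 without WT replicate 2, with 1 library left for wild type in each fit. Hcn2 (Entrez 15166), the other HCN gene of the ventricle, stood at 13.8 and 7.71 in the knockout and at 16.6 and 10.4 in wild type. It was the member whose knockout libraries differed most, by 1.79 times. Its log2 fold change was -0.32 (95% interval -0.97 to 0.33; limma adjusted p = 0.392). The interval does not reach the log2 fold change of Cacna2d1 (-1.14), but it overlaps the 95% interval of Cacna2d1 (-1.64 to -0.63). The difference between these genes was not tested. A smaller decrease or increase is within the interval of Hcn2.

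The 4 deposited pairwise ratios of each gene show where the spread lay. In the authors' deposited table, Cacna1h had log2 ratios of 2.37 and 2.29 for the knockout libraries over WT replicate 1 and of 3.49 and 3.41 over WT replicate 2. For Hcn4 the authors' deposited table gave -0.36 and -0.39 over WT replicate 1 and 0.65 and 0.62 over WT replicate 2, so the sign followed the wild-type library. WT replicate 1 was the higher of the wild-type libraries in 6 of the 8 members, all but Cacnb2 and Cacna2d1, while it was the higher in 47.2% of all tested genes. Klf9 KO replicate 1 was the higher of the knockout libraries in 8 of the 8, against 42.8% of all tested genes. In 4 of the 8 members both knockout libraries lay to the same side of both wild-type libraries, 3 above and 1 below, where 45.2% of all tested genes had both above and 30.2% both below.

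**Figure D2:**
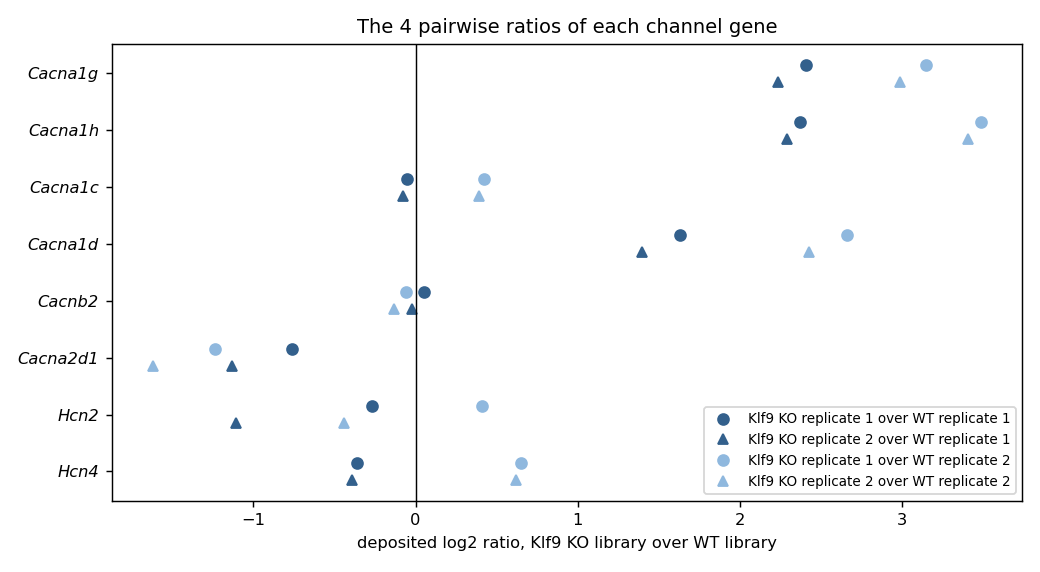
Deposited log2 ratio (horizontal axis) of each Klf9 KO library over each WT library for the 8 channel genes (rows); circles are Klf9 KO replicate 1, triangles Klf9 KO replicate 2, dark points are over WT replicate 1 and light points over WT replicate 2. All 4 ratios are positive for Cacna1g, Cacna1h and Cacna1d and negative for Cacna2d1, and for Hcn4 and Cacna1c the dark points are negative and the light points positive.

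The authors' own group comparison called more of the 8 genes than the test on the spread between libraries. In the authors' deposited table, 6 of the 8 had a DEGseq q below 0.05, as had 70.0% of all genes with a q. The log2 ratio in the authors' deposited table was -0.39 for Hcn2 (q = 3.88e-09) and 0.11 for Cacna1c (q = 4.94e-09). These are the 2 members with such a q that did not pass limma. For Hcn4 and Cacnb2 the authors' deposited table gave q = 0.826 and q = 0.783. The log2 ratios of the genes that passed limma were 2.61 for Cacna1g, 2.71 for Cacna1h, 1.86 for Cacna1d and -1.25 for Cacna2d1 in the authors' deposited table.

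Ratios of subunits within a library carry no effect of the library's scaling, and are given relative to a wild-type mean of 1 as a description with no test. Relative to Cacna1c, Cacna1g stood at 6.01 and 5.45 in the knockout libraries and at 1.10 and 0.904 in the wild-type libraries. Cacna1h relative to Cacna1c stood at 6.53 and 6.31 in the knockout and at 1.22 and 0.779 in wild type. The ratio of Cacna1h to Cacna1g overlapped between the groups, at 1.10 and 1.17 in the knockout and 1.13 and 0.872 in wild type, whereas both T-type genes stood higher against Cacna1c in the knockout libraries than in the wild-type libraries. Cacna1d relative to Cacna1c stood at 3.81 and 3.31 in the knockout and 1.19 and 0.809 in wild type. Cacna2d1 relative to Cacna1c stood at 0.417 and 0.327 in the knockout and 0.681 and 1.32 in wild type. Cacnb2 relative to Cacna1c and Hcn4 relative to Hcn2 overlapped between the groups.

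**Figure D3:**
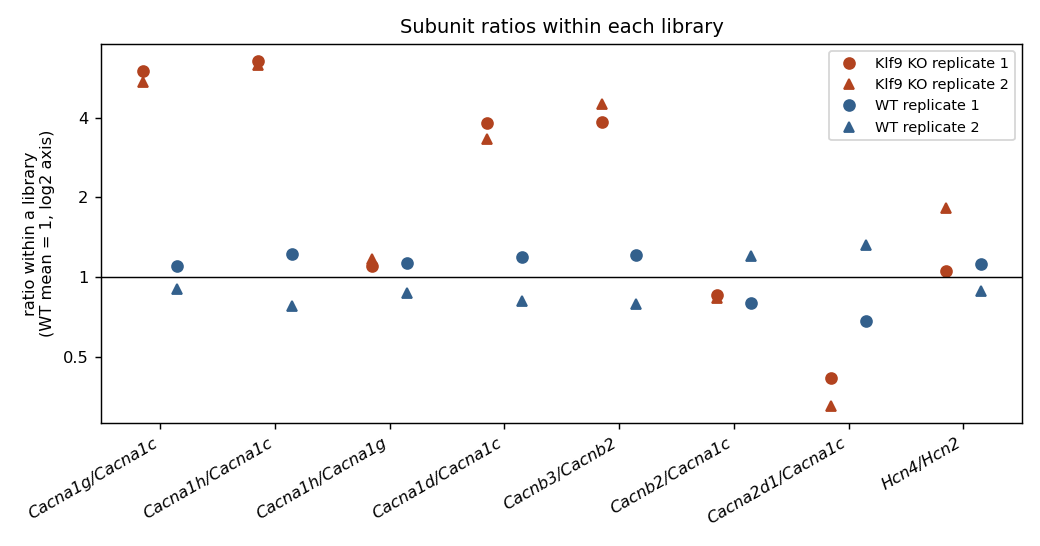
Ratio of the values of a pair of subunit genes within each library, divided by the WT mean of that ratio (vertical axis, log2 scale); Klf9 KO libraries are red and WT libraries blue, circles replicate 1 and triangles replicate 2. The Klf9 KO libraries stand at 5.45 to 6.53 for the T-type genes over Cacna1c and at 0.327 and 0.417 for Cacna2d1 over Cacna1c.

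Other genes of these channels, their regulators and the factors that pattern pacemaker and working heart muscle were read from a list of 48 genes. Of these, 47 were in the table and 25 had values high enough to be tested (at least 1 in at least 2 libraries). In the knockout 14 of the 25 were higher, 1 was lower and 10 did not pass, where 27.7% of all tested genes were higher and 17.0% lower. Their median log2 fold change was 0.76, against 0.12 for all tested genes. Of the genes called, Cacna1a and Akap5 reached 1 only in the knockout libraries, and Cacna1s only in the wild-type libraries. They were tested only through the group where they were high, and the counts and the median include them. With no filter, 14 list genes were higher and 3 lower.

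Of the beta subunits other than Cacnb2, Cacnb3 and Cacnb1 rose and Cacnb4 was not tested. Cacnb3 stood at 11.6 and 13.1 in the Klf9 KO libraries and at 3.54 and 2.50 in the WT libraries. Its log2 fold change was 1.74 ± 0.19 (SE), with a limma adjusted p of 0.000172. The groups did not overlap, and relative to Cacnb2 it stood at 3.84 and 4.52 in the knockout and at 1.21 and 0.791 in wild type. Cacnb1, the beta subunit of skeletal muscle, stood at 6.97 and 7.25 in the knockout and at 3.74 and 1.96 in wild type (log2 fold change 1.11). Cacnb4 was below the minimum for the test, at 0.42 and 0.35 in the knockout and 0.13 and 0.33 in wild type.

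Of the other alpha 1 subunits, Cacna1a and Cacna1s were tested. Cacna1a, the pore of the neuronal P/Q-type channel, rose, with 3.66 and 2.61 in the knockout and 0.95 and 0.70 in wild type (log2 fold change 1.17 ± 0.18, SE; limma adjusted p = 0.00114). Cacna1s, the L-type pore of skeletal muscle, fell, with 0.91 and 0.40 in the knockout and 5.75 and 2.74 in wild type (log2 fold change -1.62 ± 0.28, SE; limma adjusted p = 0.00179). Skeletal muscle markers in the same libraries summed to 1654 and 1627 in the knockout and to 2381 and 1771 in wild type. These sums were led by Ckm and Acta1, which heart muscle also expresses. Of 2 tested, 0 were higher and 1 (Acta1) was lower, beside 27.7% higher and 17.0% lower over all tested genes. Acta1 stood at 45.2 and 70.9 in the knockout and at 814 and 313 in wild type, and Ckm did not pass. The skeletal myosins Myh1, Myh2 and Myh4 were at 0.04 or less in every library. The part of skeletal muscle in the Cacna1s result was not tested. Neuronal markers went both ways: Uchl1 rose, with 19.6 and 22.5 in the knockout and 14.2 and 10.8 in wild type, and Tubb3 fell, with 0.43 and 0.41 in the knockout and 1.12 and 1.11 in wild type. Tubb3 reached 1, the minimum for the test, only in the wild-type libraries, so it was tested only through the group where it was high. The part of neurons in the Cacna1a result was not tested.

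Gamma and alpha 2 delta subunits were mostly below the range of the test. Cacng6 rose, with 7.06 and 8.88 in the knockout and 1.28 and 1.05 in wild type (log2 fold change 2.05 ± 0.18, SE; limma adjusted p = 5.95e-05). Cacng7 did not pass, with 4.49 and 4.23 in the knockout and 3.55 and 3.77 in wild type. Cacna2d2, another alpha 2 delta subunit, stood at 0.49 and 0.46 in the knockout and at 1.05 and 0.65 in wild type and was not tested. Hcn3, a further HCN gene, was at 0.28 or less in every library.

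Among the genes that regulate these channels, 4 of 9 tested rose and 0 fell. The shares over all tested genes were 27.7% higher and 17.0% lower. Rem1 and Gem, small GTPases that reduce L-type current, stood at 7.28 and 6.72 (Rem1) and 4.84 and 4.91 (Gem) in the knockout, against 2.93 and 2.54 (Rem1) and 1.22 and 1.84 (Gem) in wild type, with log2 fold changes of 1.10 and 1.23. Rrad, a related GTPase, did not pass, with 76.2 and 69.97 in the knockout and 61.4 and 77.2 in wild type. Cav3, the muscle caveolin, rose by 0.80 on the log2 scale and did not pass without either knockout library in turn (limma adjusted p = 0.103 and 0.115). Akap5, which anchors protein kinase A, rose by 0.87. Ahnak, a large protein that binds the beta subunit, did not pass, with 51.3 and 46.8 in the knockout and 59.4 and 42.9 in wild type.

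Among the factors of pacemaker and working muscle, 6 of 10 tested rose and 0 fell, beside 27.7% higher and 17.0% lower over all tested genes. Rest, a repressor that in mouse heart restrains fetal cardiac genes, HCN and T-type channel genes among them, stood at 3.93 and 3.82 in the knockout and at 1.87 and 0.97 in wild type (log2 fold change 1.04 ± 0.21, SE; limma adjusted p = 0.00389). Tbx18, a factor of the developing sinus node that epicardial cells also express, rose by 0.76. Gata4 and Gata6 each rose by 1.10, and Hand2 and Mef2c by 0.89 and 0.59; Hand2 did not pass without either knockout library in turn (limma adjusted p = 0.0586 and 0.0823), nor did Mef2c (0.244 and 0.130). Mef2c also missed the threshold after RLE scaling (limma adjusted p = 0.0814) and with no filter (limma adjusted p = 0.0596). Tbx3, Tbx5 and Nkx2-5 were among those that did not pass: Tbx5 stood at 10.02 and 8.90 in the knockout and 10.9 and 9.11 in wild type, and Nkx2-5 at 77.7 and 101.9 in the knockout and 67.6 and 50.2 in wild type.

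**Figure D4:**
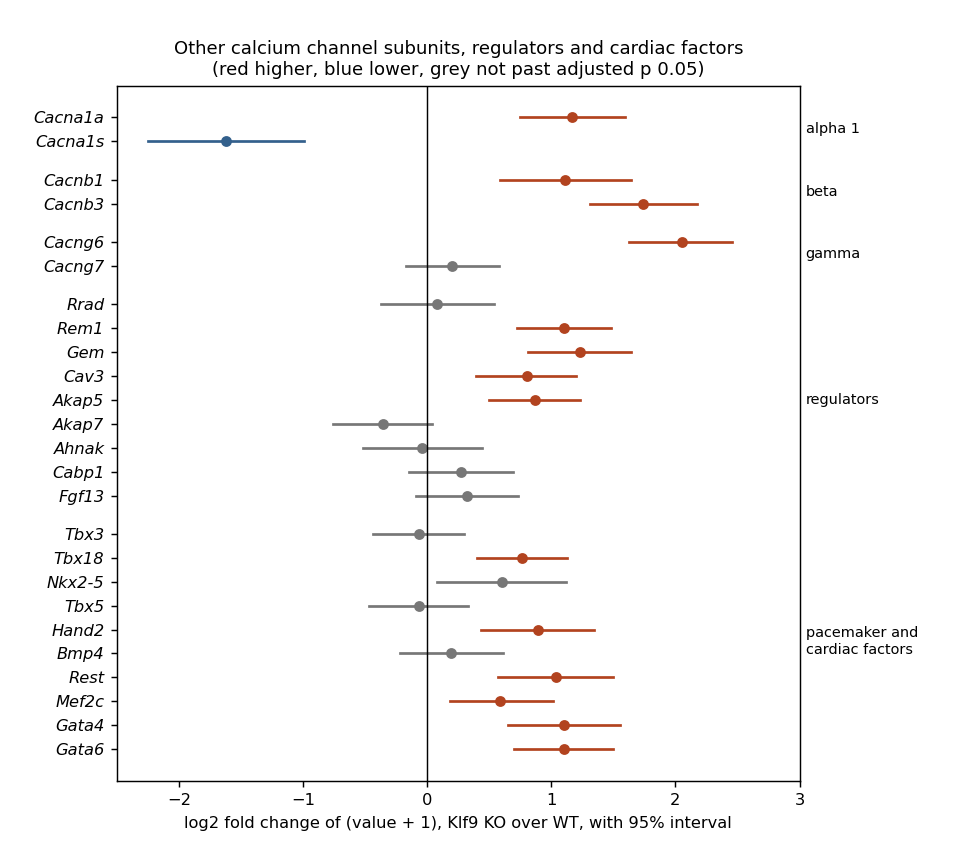
Log2 fold change of (value + 1), Klf9 KO over WT (horizontal axis), with its 95% interval for the 25 tested genes of the channel list; red points passed as higher, the blue point as lower and grey points did not pass. Cacng6 has the highest value, at 2.05, and Cacna1s is the 1 gene that was lower.

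Markers of other cell types that could carry these RNAs are given by their sums and counts, beside the 27.7% of all tested genes that were higher and the 17.0% that were lower. Of 6 smooth muscle markers, 4 were higher, and they summed to 1025 and 1121 in the knockout and to 1235 and 1046 in wild type, led by Des, which heart muscle shares, and Acta2. Endothelial markers, led by Cdh5 and Pecam1, summed to 467 and 475 in the knockout and to 373 and 363 in wild type, with 2 of 6 higher. Fibroblast markers, led by Dcn and Col1a1, summed to 806 and 885 in the knockout and to 380 and 538 in wild type, with 3 higher and 1 lower. Markers of the ventricular conduction system, led by Nkx2-5 and Irx3, summed to 110.0 and 135 in the knockout and to 99.8 and 73.0 in wild type, with 1 of 5 tested (Gja5) higher. Macrophage markers, led by C1qa and C1qb, summed to 44.8 and 44.3 in the knockout and to 122 and 164 in wild type, with 1 higher and 4 lower. Red cell genes, led by Hba-a1 and Hba-a2, summed to 18945 and 12515 in the knockout and to 11075 and 10828 in wild type, with 1 of 6 higher. The part of these cell types in the channel results was not tested.

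Genes whose profile over the 4 libraries was nearest to that of Cacna1g and Cacna2d1, the members with the highest and the lowest fold change of log2(value + 1), were found by the root mean square difference of centred log2(value + 1). Without the pseudocount Cacna1h was the higher, at 2.89 against 2.70 for Cacna1g. For Cacna1g they were Itih5 (0.0079), Kcp (0.061) and Cacna1h (0.065), so that the other T-type gene was the third nearest of all named genes. For Cacna2d1 they included Klhdc1 (0.033) and Itgb2 (0.058). With 4 libraries in 2 groups, such a likeness rests mostly on the difference between the groups.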

How the data were processed

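Hearts of Klf9 KO and WT mice (2 libraries each) were profiled by RNA sequencing; groups and replicate numbers come from the sample titles. The authors deposited 1 table of comparisons: log2 ratios for each pair of libraries and for the groups, with p-values and q-values, under names that point to a Poisson model and DEGseq, per the file headers. The sources used here do not give aligner, counting, build, strand handling or depth. Column names put wild type before knockout, and the deposited log2 ratios were taken as knockout over wild type, the direction in which Klf9 is lower in the knockout.

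Values per library were recovered from the pairwise ratios, which were additive to within 9.9e-14 in 16152 genes, as the smallest whole numbers that give them, read in steps of 0.01 (an assumption). Missing ratios (1333 genes) were taken as pairs at 1 step each. Whole numbers were found for all 17485 genes. Any common divisor of a gene's 4 numbers cannot be seen (chance gives one in 7.61% of genes); the level is then too low and the ratios stay as they are. Whether values are per gene length is not known, so levels of the channel genes are not compared with each other, and marker sums only show which genes lead them.

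No counts were available, so limma 3.58.1 (R 4.3.3; trend and robust empirical Bayes) was run on log2(value + 1) of the 12135 genes with at least 1 in at least 2 libraries, with Benjamini-Hochberg adjustment over all of them. The test was first tried on simulated data. Tables and figures used Python 3.11.15, numpy 2.4.6, pandas 2.3.3 and matplotlib 3.10.9. The alternatives used RLE or upper quartile scaling, left out the filter, or took other pseudocounts, no robust setting, a replicate block or 1 library fewer.

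Members and lists were chosen with earlier results of these data known. Named were the 8 members, Klf9, the list genes past the threshold and up to 2 per group of the list with the highest mean among the others, the 2 highest markers per cell type, and the 3 nearest profiles of 2 members. Shox2, Isl1, Cpne5, Sln, Myl7, Myl4, Stard10, Tubb3, Tnni1, Igf2, Esr1, Tnni3, Gja5, Tbx3, Kdm5d, Ddx3y, Eif2s3y, Uty and the skeletal myosins were named after their values were seen. A few genes covered by this rule are left out here.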

Additional observations from a re-analysis of the deposited data

How the results depend on the processing

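Cacna1g, Cacna1h, Cacna1d and Cacna2d1 kept their direction under all 11 alternatives and passed under those that kept every library. Leaving out 1 library left 1 in its group, so the test had no spread within that group. Signs changed in the 4 members that did not pass, and the cause was not tested. With 1 library left out, the log2 fold change ranged from -0.70 to 0.063 for Hcn2 (highest without Klf9 KO replicate 2), and from -0.28 to 0.43 for Hcn4, from -0.06 to 0.40 for Cacna1c and from -0.093 to 0.014 for Cacnb2, where the sign turned without WT replicate 2. After RLE scaling Hcn4 was at -0.036. Leaving out 1 library at a time gave 3 to 5 higher members (5 without WT replicate 1) and 1 lower member. In the list of 48 genes there were 1 to 2 lower genes when a library was left out, 2 after RLE scaling and 3 with no filter, where more genes were tested. Of all tested genes, 1859 to 4327 were higher and 1100 to 3261 lower when 1 library was left out; the fewest were without Klf9 KO replicate 2, and without Klf9 KO replicate 1 there were 2195 and 1247. RLE scaling moved the median of all tested genes from 0.12 to -0.02 and the calls from 3367 higher and 2061 lower to 2610 and 2633. Same-numbered libraries did not deviate together (correlation -0.0355); with the replicate block the counts were 3514 higher and 2275 lower, and 3 members were higher and 1 lower. Fold changes of low genes depend on the pseudocount, and depth is unknown.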
